A study of Mus musculus with 3 samples.

Results

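Insulin-rich beta cells of mouse islets were compared between a library labelled ASF-KO and a wild-type (WT) library. A barcode was kept with at least 500 detected genes, at least 1000 unique molecular identifiers (UMIs, which count captured transcripts) and at most 20% mitochondrial UMIs. It was called insulin-rich where the transcripts of Ins1 and Ins2, the mouse insulin genes, made up at least 25% of its UMIs and those of Gcg, Sst and Ppy, the hormones of the other islet endocrine cells, each stayed under 2%. This gave 4791 WT cells and 3921 cells labelled ASF-KO, 8712 in all, out of 16689 kept barcodes in both libraries and 28374 in the series. The rule used the hormone transcripts, so their levels are descriptions of the gate and not results.

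The series holds 3 single-cell RNA libraries, with 1 library a genotype: WT, ASF-KO and SC35-KO, all from mice aged 9 months. ASF is an earlier name for SRSF1 and SC35 for SRSF2. Both are splicing factors of the SR family, and the series title ties them to diabetes. Islets were released by collagenase, picked by hand, dissociated with trypsin and loaded on a droplet system that counts the 3′ ends of polyadenylated RNA. The labels give the genotype only as a name: the deleted part of the gene, the promoter or cell type of any Cre, the strain and the number of mice behind each library are not given in the sources used here. With 1 library a genotype there was no replicate and no test. The intervals below are 95% intervals for counting error only, PCR and dissociation are not in them, and a difference between genotypes cannot be told apart from one between mice or preparations.

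Beta cells make insulin as a precursor that enters the endoplasmic reticulum (ER), folds there with the help of chaperones and disulfide isomerases, and travels through the Golgi into granules where it is cut, packed with zinc and stored. When unfolded protein builds up, the sensors Ire1 (Ern1), Atf6 and Perk (Eif2ak3) start the unfolded protein response: Xbp1 and Atf6 raise chaperones and degradation factors, while Perk slows translation and acts through Atf4 and CHOP (Ddit3). SR proteins such as SRSF1 bind exons in precursor RNA and help choose splice sites. Counts of 3′ ends measure how much of a transcript is present and not how it was spliced.

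The insulin-rich cells carried a median of 22463 UMIs in WT and 26706 under the ASF-KO label. Insulin transcripts took more of them in the ASF-KO library: the 5th, 50th and 95th percentiles of the Ins1 and Ins2 share were 39.3%, 53.1% and 63.7% in WT against 50.2%, 63.6% and 71.8%. UMIs of all other genes were therefore fewer, with a median of 8730 per cell in WT and 7826 under the ASF-KO label once Ins1, Ins2, Iapp and the mitochondrial genes were set aside. All levels below are a gene's UMIs per 1000000 of those remaining UMIs (CPM), from sums of 42434209 UMIs in WT and 31799907 in ASF-KO. The gate kept 51.6% of kept WT barcodes (50.6% to 52.6%) and 52.98% of those labelled ASF-KO (51.8% to 54.1%). The quality filter removed 9.53% of WT barcodes and 40.8% of ASF-KO barcodes, and 2 insulin-rich barcodes were shared by both libraries. Near the threshold, cells with 25% to 30% insulin UMIs numbered 37 in WT and 21 in ASF-KO, with median totals of 11428 and 1873 UMIs, and those with 20% to 25% numbered 24 and 39.

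Beta-cell markers were present on both sides. Pdx1, a homeobox factor of the beta cell, stood at 162 CPM in WT and 239 in ASF-KO, and Mafa, a factor of mature beta cells, at 608 and 750. The other 5 of the 7 measured markers had ratios under 1: Nkx6-1 at 543 and 421 CPM, Ucn3 at 812 and 589, Slc2a2 at 956 and 511, G6pc2 at 1370 and 990, and Slc30a8 at 1203 and 905. RNA of other cells was also present at low levels and differed between the libraries. The 25 exocrine enzyme genes summed to 1945 CPM in WT and 1713 in ASF-KO. The immunoglobulin transcript Igkc had 123 CPM in WT and 2.99 in ASF-KO, and 5 fibroblast markers summed to 24.2 and 0.692 CPM. The haemoglobin transcript Hbb-bs stood at 4.48 and 85.3 CPM. The part that free RNA plays in the results below was not tested.

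Srsf1 did not stand out as low in the library labelled ASF-KO. The gene (chr11:88047373-88053755, GRCm38) had 99.8 CPM in WT, 128 in ASF-KO and 141 in SC35-KO insulin-rich cells. The ASF-KO to WT ratio was 1.28 (1.22 to 1.33), or 0.958 when scaled to all UMIs, insulin included. In glucagon-rich cells of the same libraries it was 1.62. A 3′ count sees the end of the transcript and would not show a deletion of other exons that leaves the RNA stable, so the label is neither borne out nor contradicted by it. The genotype is therefore written below as the label has it.

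Of 9342 genes measured at a mean of at least 10 CPM, 752 were at least 1.5-fold higher in the ASF-KO library, which is 8.05%, and 810 at least 1.5-fold lower, which is 8.67%. "Higher" and "lower" below mean past this fold. The shares of 8.05% and 8.67% are the background for the list counts below. The median log2 ratio of all measured genes was -0.02, and the 5th and 95th percentiles were -0.75 and 0.72. A change of at least 2-fold was seen in 190 genes upward (2.03%) and 194 downward (2.08%). All ratios are relative to the chosen total. Scaled to all UMIs, of which insulin took more in ASF-KO, the median of all genes was -0.41 and 6.05% of the called genes were higher, against 48.1% here; with Mt1, Mt2 and ribosomal protein genes also left out of the total it was 34.2%. Under the scaling to all UMIs the medians of ER folding (0.75), ER entry (0.34), ER to Golgi transport (0.24) the Atf4 and CHOP arm (-1.07) and beta maturity (-0.88) kept their sign. Those of ER-associated degradation (-0.06), the sensors (-0.09), prohormone processing (-0.07), antioxidants (-0.0029), the proteasome (-0.00085), sterol synthesis (-0.03), SR proteins (-0.16), mitochondrially encoded genes (-0.0017) and the zinc list (-0.37) turned negative, all above the median of all genes. Derl3, Kdelr3, Slc39a10, Aldh1a3 and Matn2, described below, were under 10 CPM in WT and passed the minimum through the ASF-KO library, and Trib3, Shmt2, Psat1 and Npas4 the other way round, so such genes had to differ. At these depths counting error was small, with a median of 1770 UMIs a gene in WT and 1316 in ASF-KO. The plot of ratio against level shows where the gene groups described below lie among all genes.

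**Figure D1:**
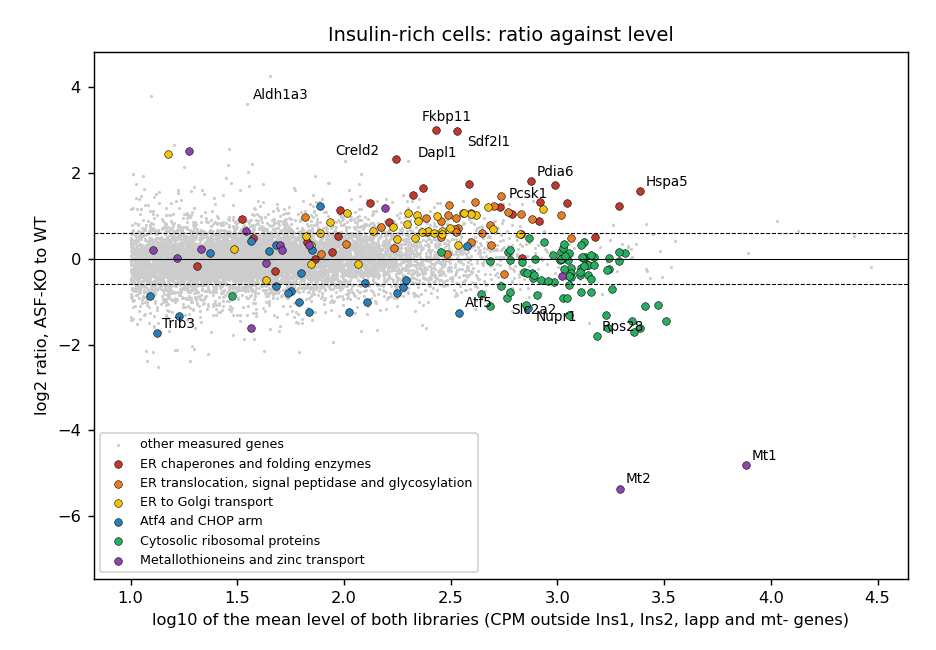
Each point is a measured gene in insulin-rich cells, with its mean level in both libraries (log10 of CPM) on the x axis and its log2 ratio of ASF-KO to WT on the y axis; dashed lines mark 1.5-fold. Of 29 ER folding genes 19 lie above the upper line, up to 7.94-fold (Fkbp11), and 10 between the lines. Mt1 and Mt2 stand far below the other labelled genes at 0.0355 and 0.0244.

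ER folding genes had the highest median ratio of the ER groups described here, while the shares of higher members in ER entry and ER to Golgi transport, given further on, were much the same. Of 29 chaperones and folding enzymes, all measured, 19 were higher and 0 lower in the ASF-KO library (65.5% against a background of 8.05%), with a median log2 ratio of 1.13. Together they summed to 9351 CPM in WT and 21357 in ASF-KO. Ranked by the bound of the interval nearest 1, 8 of the 15 highest eligible genes with at least 50 CPM belonged to this list: Fkbp11, Sdf2l1, Creld2, Pdia6, Hyou1, Manf, Ppib and Hspa5. In SC35-KO insulin-rich cells the same list had a median log2 ratio to the same WT library of 0.14.

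Several of these genes carry the ER stress response element (ERSE) in the RefSeq promoter table, the site through which Atf6 and Xbp1 are known to act on chaperone genes. The element was searched as CCAAT, any 9 bases and CCACG, on both strands of windows from 250 bases before to 50 after each start site (GRCm38.p6). It lay in 39 of 32851 windows (0.119%). Among measured genes 13 had it, and 9 of these were higher, 3 in between (Hnrnpa3, Pan2 and Canx) and 1 lower (Xlr3a). By class, 9 of 605 higher genes matched in the table carried it, 3 of 6245 in between and 1 of 631 lower genes. Derl3, among the 9, passed the minimum level through the ASF-KO library and so had to be higher. Creld2 and Alg12 share a site and are counted as separate genes. The sites of the higher genes are shown because they lie before genes that moved together, with the fixed letters in capitals and the spacer in lower case, each read on the strand that holds it, in order of the gene's ratio:
Derl3, chr10:75893242-75893260: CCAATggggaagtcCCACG
Creld2 and the divergent Alg12, chr15:88819520-88819538: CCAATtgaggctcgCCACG
Pdia6, chr12:17266491-17266509: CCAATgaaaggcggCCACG
Hspa5, chr2:34772025-34772043: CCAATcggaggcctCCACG
Dnajc3, chr14:118937827-118937845: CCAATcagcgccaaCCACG
Hsp90b1, nearer site, chr10:86705533-86705551: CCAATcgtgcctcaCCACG
Hsp90b1, farther site, chr10:86705638-86705656: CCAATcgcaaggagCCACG
Calr, chr8:84847075-84847093: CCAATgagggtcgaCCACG
Syvn1, chr19:6046532-6046550: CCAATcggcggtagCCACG
For comparison, the site of Canx, whose level did not differ by the fold used, is on chr11:50325800-50325818:
Canx: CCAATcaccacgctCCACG
A match is a description of the letters and not of binding. Fkbp11 and Sdf2l1, with the largest ratios of the list, had no match in their windows. Only 24 of the 29 ER folding genes had a window in the promoter table. Manf and Hyou1 had none and could not be searched.

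The 250 bases before the Hspa5 start site (chr2:34771840-34772089, plus strand) show the element in its setting, in capitals, with its first base 65 bases before the start:
Hspa5: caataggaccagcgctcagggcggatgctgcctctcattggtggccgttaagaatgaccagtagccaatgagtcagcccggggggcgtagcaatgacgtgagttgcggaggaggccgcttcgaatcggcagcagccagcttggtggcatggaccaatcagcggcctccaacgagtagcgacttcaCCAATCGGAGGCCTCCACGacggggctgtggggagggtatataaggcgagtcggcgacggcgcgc
Hspa5 encodes BiP, the main Hsp70 chaperone of the ER. It stood at 1230 CPM in WT, 3660 in ASF-KO and 948 in SC35-KO, a ratio of 2.97 (2.94 to 3.01) between ASF-KO and WT.

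The partners of BiP moved the same way. Sdf2l1, which binds BiP's co-chaperones, had 76.9 CPM in WT and 598 in ASF-KO, a ratio of 7.78 (7.49 to 8.07). Hyou1, a nucleotide exchange factor of BiP, had 177 and 594 CPM, and its ratio was 3.35. Among the J-domain co-chaperones, Dnajc3 had 475 and 1181 CPM, Dnajb11 76.9 and 189, Dnajb9 326 and 750, and Dnajc10 116 and 210. Sil1, another exchange factor of BiP, did not share the pattern, with 73.5 and 73.1 CPM. Hsp90b1, the Hsp90 of the ER, had 1171 and 2730 CPM and a ratio of 2.33 (2.31 to 2.36).

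Disulfide isomerases, which form the cross-links of proinsulin, differed in degree. Pdia6 had 337 CPM in WT and 1174 in ASF-KO, Pdia3 642 and 1567, Pdia4 111 and 309, and Txndc5 60.05 and 131. P4hb, the classical protein disulfide isomerase, stayed within 1.5-fold at 545 and 807 CPM, as did its oxidases Ero1lb at 1236 and 1766 and Ero1l at 58.3 and 76.3. Txndc12 was the lowest ratio of the list, at 0.820, from 52.0 and 42.6 CPM.

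Prolyl isomerases were higher: Fkbp11 (chr15:98724366-98728198) at 60.3 CPM in WT, 478 in ASF-KO and 138 in SC35-KO, a ratio of 7.94 (7.61 to 8.28). Ppib, cyclophilin B, had 114 and 354 CPM, and Fkbp2 401 and 829. Creld2, a small ER protein that ER stress raises, had 58.4 and 293 CPM and 71.2 in SC35-KO. Manf, an ER protein that is also secreted, had 458 and 1495 CPM, a ratio of 3.26. The lectin chaperones parted: Calr had 579 and 1054 CPM, a ratio of 1.82, whereas its membrane-bound relative Canx had 680 and 684.

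ER-associated degradation, which returns misfolded proteins to the cytosol, was higher in 9 of 18 members and lower in 0, with a median log2 ratio of 0.53 that became -0.06 when scaled to all UMIs. Derl3, a channel-forming rhomboid-like protein of this route, had 8.37 CPM in WT, 49.2 in ASF-KO and 21.3 in SC35-KO, a ratio of 5.88 (5.24 to 6.62). Selenok, a selenoprotein of the ER membrane, had 400 and 1090 CPM, and the mannosidase-like Edem2 71.8 and 153. The ubiquitin ligase Syvn1 was higher at 29.2 and 53.02 CPM. Its partner Sel1l was not, at 255 and 209, nor was Herpud1, at 547 and 463. The members thus ranged from 0.818 (Sel1l) to 5.88.

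Entry into the ER and export from it followed. Of 32 genes of translocation, signal peptide removal and glycosylation, 22 were higher and 0 lower, with a median log2 ratio of 0.75. Ostc, a subunit of the oligosaccharyltransferase, had 291 CPM in WT and 800 in ASF-KO, and Srp9, of the signal recognition particle, 236 and 587. Sec62, of the translocon, was the lowest at 632 and 493. Of 33 genes of ER to Golgi transport, 22 were higher and 0 lower, with a median of 0.65. Kdelr3, a receptor that brings escaped ER proteins back, had 4.71 and 25.3 CPM and 11.9 in SC35-KO. Lman1, a cargo receptor, had 533 and 1185 CPM, and the cargo receptor Tmed9 286 and 656. The 8 letters TGACGTGG, the core of the element that Xbp1 is known to bind, lay in the windows of 6 of 29 matched transport genes, 1 of 24 ER folding genes, 1 of 15 ER-associated degradation genes and 0 of 25 ER entry genes, against 1.257% of measured genes (and 0.676% of all promoter windows).

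**Figure D2:**
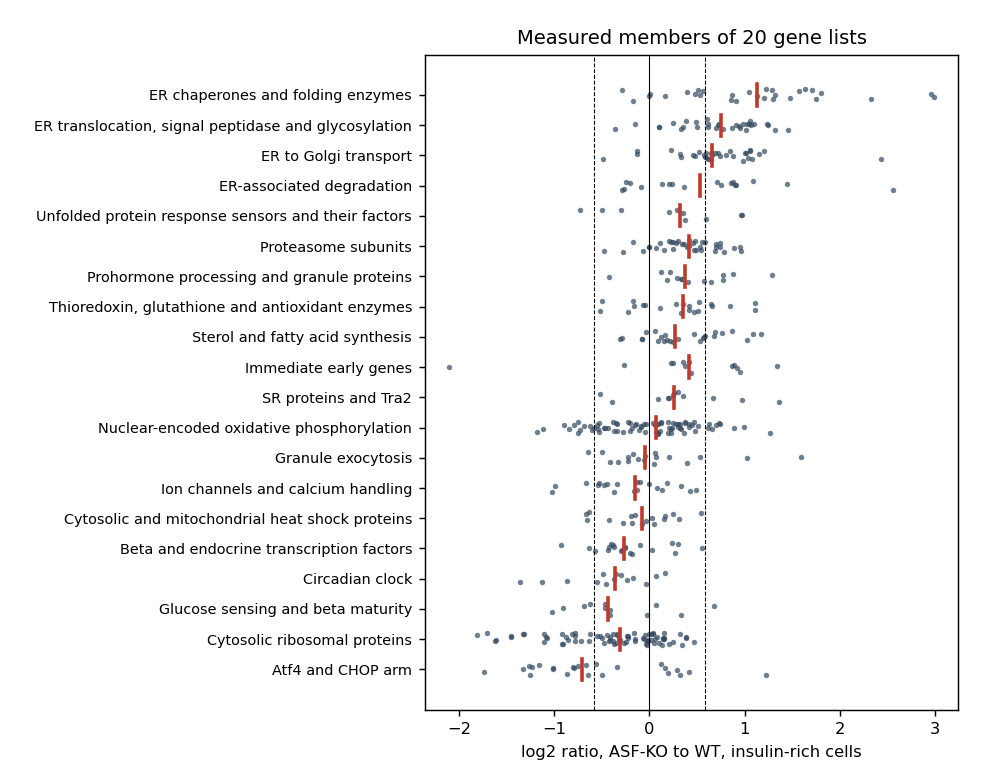
Each point is a measured member of a gene list, with its log2 ratio of ASF-KO to WT in insulin-rich cells on the x axis; red bars are list medians and dashed lines 1.5-fold. The ER lists sit to the right, with medians from 0.53 to 1.13 (ER-associated degradation alone of the 4 is below 0, at -0.06, when scaled to all UMIs), and the Atf4 and CHOP arm has the lowest median, -0.71.

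The sensors themselves differed less. Of 10 sensors and their factors 3 were higher and 1 lower, with a median log2 ratio of 0.32 that became -0.09 when scaled to all UMIs. Eif2ak3 had 28.9 CPM in WT and 56.4 in ASF-KO, and Atf6b 19.6 and 38.2. Xbp1 had 249 and 317 CPM and Atf6 120 and 147, both within 1.5-fold. Ern1, the Ire1 kinase and nuclease that splices Xbp1 RNA, was lower at 144 and 87.0 CPM, a ratio of 0.605. The spliced form of Xbp1 was not counted separately.

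The Atf4 and CHOP arm went the other way. Of 24 measured members of 30, 14 were lower and 1 higher (58.3% lower against a background of 8.67%), with a median log2 ratio of -0.71. Atf4 itself had 341 CPM in WT and 417 in ASF-KO, and Ddit3, which encodes CHOP, 232 and 146, a ratio of 0.630. Trib3, a pseudokinase that CHOP raises, had 20.4 and 6.13 CPM and the lowest ratio, 0.3005. Atf5, a related factor, had 490 CPM in WT, 204 in ASF-KO and 447 in SC35-KO, a ratio of 0.417 (0.406 to 0.429). Nupr1, a small stress-response chromatin protein, had 1011, 453 and 2026 CPM in the same order, so it was low in ASF-KO and high in SC35-KO.

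Metabolic members of the list were split. Asns, asparagine synthetase, had 226 CPM in WT and 130 in ASF-KO. Mthfd2 and Shmt2, mitochondrial enzymes of one-carbon metabolism, had 172 and 85.4, and 24.2 and 9.62 CPM. Chac1, which degrades glutathione, had 82.3 and 40.7 CPM, and Eif4ebp1, a brake on translation, 96.3 and 40.4. In serine synthesis Phgdh had 58.8 and 37.6 and Psat1 15.9 and 8.74, whereas Psph was within 1.5-fold at 22.7 and 24.7. The enzymes of proline synthesis were also within it, Aldh18a1 at 41.99 and 47.1 and Pycr1 at 31.6 and 42.2, as was the amino acid transporter Slc7a5 at 69.9 and 55.4. The 1 higher member of the arm was Ppp1r15a, which guides dephosphorylation of eIF2 alpha, at 46.6 and 109 CPM. Of 20 cytosolic aminoacyl-tRNA synthetases 4 were lower and 0 higher. Sars had 547 and 282 CPM and Cars 82.4 and 38.8, while Tars, the highest, had 60.8 and 90.9.

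The metallothioneins Mt1 and Mt2, small cysteine-rich proteins that bind zinc and copper and that glucocorticoids and metals raise, gave the lowest ratios of the ranked genes. Mt1 (chr8:94179082-94180327) had 14742 CPM in WT, 524 in ASF-KO and 6212 in SC35-KO, a ratio of 0.0355 (0.0350 to 0.0361) between ASF-KO and WT. Mt2 (chr8:94172664-94173568) had 3834, 93.4 and 1163 CPM and a ratio of 0.0244 (0.0235 to 0.0253). Both were also low in other cell classes of the ASF-KO library. The Mt1 ratio was 0.0609 in glucagon-rich, 0.150 in somatostatin-rich and 0.0490 in endothelial-gated cells, with 1125 CPM in WT glucagon-rich cells. Mt3, a relative best known from brain, was alike in both, at 16.4 and 16.5 CPM.

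The 250 bases before the start sites of the pair are shown because both genes lie side by side and moved together. Capitals mark the metal response element cores TGCACNC and TGCGCNC, searched on both strands; these short cores lay in 12.6% and 15.4% of all windows, so a match is common. Each gene has further cores just after its start, which are not shown. Mt1 is at chr8:94178839-94179088 and Mt2 at chr8:94172368-94172617, both on the plus strand:
Mt1: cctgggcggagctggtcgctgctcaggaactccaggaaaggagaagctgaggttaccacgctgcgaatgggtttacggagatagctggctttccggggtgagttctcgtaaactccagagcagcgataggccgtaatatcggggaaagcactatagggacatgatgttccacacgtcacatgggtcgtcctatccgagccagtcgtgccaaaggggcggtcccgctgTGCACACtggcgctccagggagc
Mt2: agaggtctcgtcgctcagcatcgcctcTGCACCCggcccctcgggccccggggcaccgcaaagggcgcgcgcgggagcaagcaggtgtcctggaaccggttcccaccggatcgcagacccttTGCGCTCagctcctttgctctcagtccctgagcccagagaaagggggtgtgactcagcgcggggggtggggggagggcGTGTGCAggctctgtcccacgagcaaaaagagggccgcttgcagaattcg
Slc30a1, the zinc exporter of the plasma membrane and another known target of the metal sensor Mtf1, was lower as well, at 54.98 CPM in WT, 17.99 in ASF-KO and 39.4 in SC35-KO, a ratio of 0.327 (0.298 to 0.359). Mtf1 itself had 47.98 and 54.97 CPM.

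Other zinc transporters were split. Slc30a8, which loads zinc into insulin granules, had 1203 CPM in WT and 905 in ASF-KO, within 1.5-fold. The importers Slc39a10, at 5.59 and 31.9 CPM, and Slc39a7, which releases zinc from the ER, at 95.2 and 217 CPM, were higher. Without Mt1 and Mt2 the zinc list held 3 higher members, Slc39a13 being the third (1.468 with Mt1, Mt2 and ribosomal protein genes out of the total), and 1 lower.

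Prohormone processing and granule genes were higher in 5 of 14 members and lower in 0, with a median log2 ratio of 0.37 that became -0.07 when scaled to all UMIs. Pcsk1, the convertase that makes the first cut in proinsulin, had 325 CPM in WT, 791 in ASF-KO and 417 in SC35-KO, a ratio of 2.43 (2.38 to 2.48). Pcsk2, which makes the second cut, had 7450 and 8116 CPM, and Cpe, the carboxypeptidase that trims the ends, 3540 and 2645. The granins Scg2 at 7573 and 13901 CPM, Chga at 10446 and 16351, and Chgb at 1342 and 2293 were all higher, though Chga was at 1.483 with Mt1, Mt2 and ribosomal protein genes also out of the total. Vgf was the fifth higher member, at 12.3 and 21.2 CPM, but was 0.878 when bins of insulin share were weighted equally.

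Granule release genes showed little common movement. Of 18 measured members 2 were higher and 1 lower, with a median log2 ratio of -0.05. Syt5, a synaptotagmin, had 16.2 and 49.0 CPM, and the priming factor Unc13a 24.9 and 50.7. Cplx2, a clamp on the fusion machinery, was lower at 500 and 320. Snap25 and Vamp2, which drive fusion, had 249 and 258, and 149 and 157 CPM.

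Most beta-cell transcription factors stayed within the fold. Of 20 measured, 2 were lower (10%, near the background of 8.67%), 0 higher and the median log2 ratio was -0.27. Foxo1, a factor that insulin signalling keeps out of the nucleus, had 136 CPM in WT and 71.6 in ASF-KO, and Foxa2 223 and 144. Neurod1, at 549 and 371, lay just inside the fold with a ratio of 0.675, and past it at 0.640 with Mt1, Mt2 and ribosomal protein genes also out of the total. Pdx1 had the highest ratio of the list, 1.47 (1.42 to 1.52). The ratio of Mafa, 1.23, was 0.925 when scaled to all UMIs and depended on insulin share: it was 0.550 and 0.777 in cells with 25% to 40% and 40% to 55% insulin UMIs, and 1.22 and 1.77 in those with 55% to 70% and 70% or more.

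Genes of glucose sensing and beta maturity leaned lower. Of 12 members 4 were lower and 1 higher, with a median log2 ratio of -0.44. Slc2a2, the glucose transporter GLUT2 (chr3:28697903-28731359), had 956 CPM in WT, 511 in ASF-KO and 663 in SC35-KO, a ratio of 0.535 (0.525 to 0.545). Trpm5, a calcium-activated cation channel, had 211 and 137 CPM, the anaplerotic enzyme Pcx 95.3 and 59.1, and the imprinted gene Nnat 50.3 and 24.7. Ucn3, a late maturity marker, had 812 and 589 CPM, and G6pc2 1370 and 990, both within 1.5-fold, but at 0.596 and 0.641 when bins of insulin share were weighted equally.

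Of 24 genes linked to dedifferentiation or normally kept low in beta cells, only Aldh1a3 reached the measured level, and it did so through the ASF-KO library alone, so a member that passed this way had to be higher there. Aldh1a3, an aldehyde dehydrogenase that marks beta cells losing maturity in diabetic mice (chr7:66390890-66427517), had 5.37 CPM in WT, 65.0 in ASF-KO and 57.1 in SC35-KO. The ASF-KO to WT ratio was 12.1 (10.6 to 13.9). After thinning each cell to 2000 UMIs outside hormone and mitochondrial genes, 0.901% of WT cells (0.648% to 1.22%, exact binomial) and 9.87% of ASF-KO cells (8.94% to 10.9%) had an Aldh1a3 UMI. Without thinning the shares were 3.55% and 23.0%. In endothelial-gated cells, which should lack the gene, the thinned shares were 0.545% and 0.806%, with median depths of 2860 and 3061 UMIs against 8730 and 7826 in insulin-rich cells. The interval of the WT endothelial-gated share was wide, 0.113% to 1.59%, and held the WT insulin-rich share. In thinned glucagon-rich cells the shares were 0% in WT (0% to 0.280%) and 0.210% in ASF-KO (0.0433% to 0.612%). The WT insulin-rich share was above these, and the ASF-KO insulin-rich share was above those of both other classes.

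Ion channels and calcium handling had 3 lower and 0 higher of 20 measured members (15% lower against a background of 8.67%). Cacna1d, a voltage-gated calcium channel of beta cells, had 331 CPM in WT and 163 in ASF-KO, a ratio of 0.493, and its auxiliary subunit Cacnb3 59.2 and 29.7. Kcnj11, the pore of the ATP-sensitive potassium channel, had 90.7 and 57.3, while its partner Abcc8 had 637 and 502. Among 13 measured islet receptors 2 were lower (15.4%) and 0 higher. These were the somatostatin receptor Sstr3 at 231 and 131 CPM and the adenosine receptor Adora1 at 37.6 and 20.9. The incretin receptor Glp1r had 1006 and 1198 CPM.

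Insulin and IGF signalling held 2 higher and 4 lower of 15 members. Pappa2, a protease that frees IGF from its binding proteins, had 48.9 CPM in WT, 192 in ASF-KO and 239 in SC35-KO. Its ASF-KO to WT ratio of 3.93 was 1.80 when bins of insulin share were weighted equally, and 0.817 in the top bin, which holds 12 WT cells. It was at 628 and 735 CPM in glucagon-rich cells of WT and ASF-KO. Irs2, a docking protein of the insulin receptor, had 90.4 and 53.6 CPM in insulin-rich cells, and Grb10, an inhibitor of the receptor, 24.1 and 12.5.

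Of 12 measured SR and Tra2 genes 3 were higher and 0 lower. Srsf2 had 72.2 CPM in WT, 186 in ASF-KO and 93.4 in SC35-KO, a ratio of 2.57 (2.46 to 2.69). Srsf9 had 77.7 and 152 CPM and Srsf3 174 and 277. The list medians were 0.25 in insulin-rich, 0.34 in glucagon-rich, 0.34 in somatostatin-rich and 0.29 in endothelial-gated cells, so they were alike across classes; scaled to all UMIs the first was -0.16. Clk1, a kinase that phosphorylates SR proteins, was lower at 223 and 142 CPM, and of 56 core spliceosome and hnRNP genes 2 were higher and 2 lower.

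Protein turnover, redox and sterol genes were partly higher, though scaled to all UMIs their list medians lay at or just below 0, from -0.03 to -0.00085. Of 37 proteasome subunits 9 were higher and 0 lower, with a median log2 ratio of 0.41; Psma5 had 67.4 and 131 CPM. Of 21 measured antioxidant genes 5 were higher and 0 lower. Txn1, thioredoxin, had 89.1 CPM in WT and 192 in ASF-KO, and its inhibitor Txnip, which glucose raises, 252 and 542. The Txnip ratio of 2.15 was 3.31 with bins of insulin share weighted equally, and 4.41, 4.02, 1.99 and 2.21 from the lowest bin to the highest. Of 26 genes of sterol and fatty acid synthesis 8 were higher and 0 lower, among them Idi1 at 23.3 and 52.5 and Cyp51 at 51.5 and 110 CPM. The sterol median was 0.27 here and 0.55 in glucagon-rich cells.

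Immediate early genes, which respond to stimulation and to dissociation, were higher in 5 of 13 members and lower in 1. Jun had 438 CPM in WT, 1107 in ASF-KO and 375 in SC35-KO. Fosb had 192 and 370 CPM in WT and ASF-KO. Npas4, which calcium entry raises, had 32.03 and 7.45 CPM. The list's median was 0.42 in insulin-rich and 0.61 in glucagon-rich cells. Of 14 clock genes 3 were lower and 0 higher, with Nr1d1, a clock repressor, at 70.04 and 27.4 CPM. The clock list differed between classes. In glucagon-rich cells 5 of 13 were higher and 0 lower, with 6.54% of all measured genes higher. In endothelial-gated cells 10 of 14 were higher and 0 lower, with 11.4% of all measured genes higher. In somatostatin-rich cells 4 of 13 were lower and 0 higher. The list medians were -0.37 in insulin-rich, 0.24, 1.13 and -0.21 in these classes in turn.

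Cytosolic ribosomal protein genes were lower in 24 of 78 members and higher in 0, with a median log2 ratio of -0.31. Rps28 had 2372 CPM in WT and 678 in ASF-KO, Rpl37a 3487 and 1066, and Rps29 4717 and 1719, whereas Rplp0 had 1150 and 1504. The median was also -0.31 in glucagon-rich cells, -0.65 in endothelial-gated cells and 0.31 in SC35-KO insulin-rich cells. Lower ratios went with short transcripts: of 138 measured genes with transcripts under 500 bases 25.4% were lower, against 7.38% to 8.75% in the longer ranges. The same bin had 28.2% lower genes in glucagon-rich, 29.8% in somatostatin-rich and 35.8% in endothelial-gated cells, where 3.94%, 5.72% and 8.33% of all measured genes were lower. The part of transcript length in the ribosomal result, and in that of Mt2, whose transcript is 450 bases long, was not tested.

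Energy metabolism was mixed. Of 79 nuclear-encoded respiratory chain genes 9 were higher (11.4%) and 12 lower (15.2%), against backgrounds of 8.05% and 8.67%. Among them were the short Atp5k at 569 and 251 CPM and Atp5g1 at 347 and 835. Of 13 mitochondrially encoded genes 6 were higher and 1 lower; mt-Nd6 had 41.2 and 123 and mt-Nd3 2449 and 1032 CPM on the scale of UMIs outside hormone and mitochondrial genes. Fh1, fumarase, had 54.0 and 181 CPM, a ratio of 3.35, and was among 4 higher of 19 genes of the citric acid cycle and pyruvate use. Of 12 glycolysis genes 2 were lower (16.7%) and 0 higher. Ccnd1, cyclin D1, was the 1 higher of 7 measured cell cycle genes (14.3%) at 161 and 367 CPM.

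The remaining highest genes came from other pathways. Dapl1 had 68.7 CPM in WT, 332 in ASF-KO and 216 in SC35-KO, a ratio of 4.84 that became 2.298 with bins of insulin share weighted equally. Ppa1, the cytosolic pyrophosphatase, had 34.9 and 167 CPM, and Ppat, which opens purine synthesis, 30.5 and 115. Mrps28, of the mitochondrial ribosome, had 38.6 and 131, and Pde10a, which degrades cyclic nucleotides, 38.8 and 131. Unlike most ER genes, Dapl1, Ppa1, Ppat, Mrps28 and Pde10a were also past 1.5-fold in glucagon-rich cells, with ratios of 1.68, 2.0, 2.42, 2.06 and 2.42. Dapl1 had a ratio of 6.48 in somatostatin-rich and 4.86 in endothelial-gated cells. The latter ratio rests on few cells, since Dapl1 was detected in 0.287% of WT and 4.07% of ASF-KO endothelial-gated cells, unthinned.

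The remaining lowest genes after the metallothioneins ranged in ratio from 0.261 to 0.430. T2 had 141 CPM in WT and 36.9 in ASF-KO. Cln6, an ER membrane protein mutated in a lysosomal storage disease, had 217 and 68.5 CPM. Zdhhc2, a palmitoyltransferase, had 856, 368 and 861 CPM in WT, ASF-KO and SC35-KO. Klhdc1, Flrt1, Jade2, Dcaf12l1, Ogdhl, Grina and Smim4 lay between 0.340 and 0.417. Tmsb15b2, at 365 and 119 CPM, has a near-identical neighbour, so its count is uncertain. Some of these genes were also detected less often in thinned glucagon-rich cells of the ASF-KO library. The WT and ASF-KO shares were 6.62% and 2.59% for Cln6, 8.67% and 3.57% for Klhdc1, 11.4% and 6.43% for Grina, and 17.1% and 8.67% for Smim4. T2, at 1.37% and 0.979%, and Zdhhc2, at 10.4% and 8.18%, differed less there.

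The ER difference was spread over nearly all cells rather than carried by a few. In cells thinned to 2000 UMIs (4549 WT and 3808 ASF-KO cells, with 242 and 113 shallower cells left out) the ER folding list gave 12, 18 and 26 UMIs at the 10th, 50th and 90th percentiles in WT and 28, 41 and 58 in ASF-KO. Of ASF-KO cells 92.99% were above the WT 90th percentile. Mt1 and Mt2 together gave 13, 34 and 67 UMIs in WT and 0, 1 and 3 in ASF-KO, where 48.4% of cells had none and 99.7% were below the WT 10th percentile. The Atf4 and CHOP arm overlapped far more, at 3, 7 and 13 against 1, 4 and 9, as did the maturity list at 6, 11 and 17 against 5, 9 and 13. Cells of 1 library are not replicates, so this describes the libraries.

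**Figure D3:**
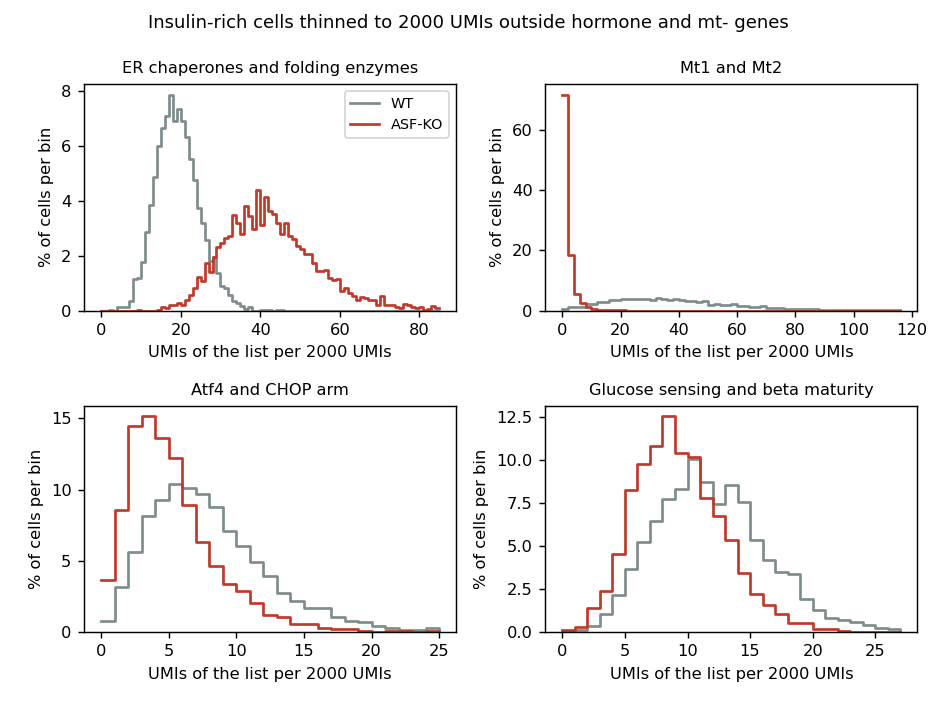
Distributions over insulin-rich cells of the UMIs from 4 gene groups after thinning each cell to 2000 UMIs outside hormone and mitochondrial genes (x axis), as the percentage of cells in each bin (y axis), for WT (grey) and ASF-KO (red). ER folding shifts from a median of 18 to 41 UMIs with little overlap, Mt1 and Mt2 from 34 to 1, and the other 2 groups overlap broadly; the extreme upper tails are not drawn.

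The share of cells with a UMI also differed for single genes, to unlike degrees. Sdf2l1 was detected in 13.8% of thinned WT cells and 63.9% of thinned ASF-KO cells (45.7% and 93.4% unthinned), against 2% and 5.11% of endothelial-gated cells. Slc2a2 was detected in 76.9% and 58.2% of thinned cells (94.4% and 87.2% unthinned), against 5.45% and 3.76% of endothelial-gated cells. Mt1 was detected in 99.7% and 48.0% (100% and 75.3% unthinned). In endothelial-gated cells Mt1 was at 59.6% and 6.18%.

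Insulin share differed between the libraries, so the groups were compared at like share. The bins of 25% to 40%, 40% to 55%, 55% to 70% and 70% or more held 269, 2675, 1835 and 12 WT cells and 72, 344, 3093 and 412 ASF-KO cells. Cells of a bin were not alike in RNA of other cells. Exocrine genes summed to 3199, 1793, 1982 and 5616 CPM in WT and 3080, 5368, 1337 and 1504 in ASF-KO. At 25% to 30% insulin UMIs, endothelial markers summed to 30.7 CPM in WT and 884 in ASF-KO. The part of this in the bin ratios, here and above, was not tested. The summed ER folding ratio was 1.87, 1.90, 2.33 and 2.59 in these bins, all above 1. The Atf4 and CHOP ratio was 0.568, 0.533, 0.655 and 0.722, and the maturity ratio 0.760, 0.682, 0.723 and 0.780, all below 1. Slc2a2 stayed lower in each bin, with ratios of 0.361, 0.359, 0.498 and 0.623. The top bin rests on 12 WT cells. Weighting the bins equally, which gives those cells a full share, moved further genes named above across the fold. Clk1 (0.729), Adora1 (0.687), Nnat (0.725), Irs2 (0.707), Grb10 (0.708), Cplx2 (0.831), Srsf3 (1.48) and Atf6b (1.47) were then within it. P4hb (1.56), Ero1l (1.79), Cpe (0.659) and Slc30a8 (0.645) were then past it. The Slc30a1 ratio became 0.497.

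**Figure D4:**
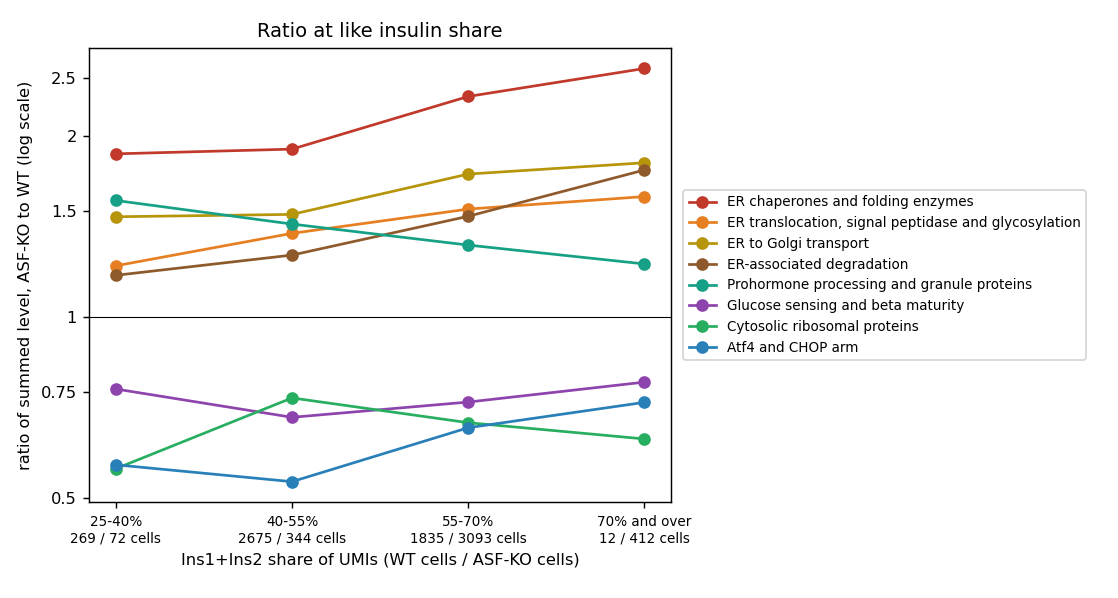
Ratio of the summed level of 8 gene lists, ASF-KO to WT (y axis, log scale), in insulin-rich cells grouped by their insulin share (x axis, with the cell numbers of both libraries). On the scale of UMIs outside hormone and mitochondrial genes, the only one drawn, the 4 ER lists and the processing list lie above 1 in each bin, from 1.17 to 2.59, and the other 3 lists below 1.

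The ER list medians were larger in insulin-rich cells than in the other classes. Gcg and Sst stayed in the scaling totals of all classes. In glucagon-rich cells Gcg stood at 193768 CPM in WT and 233040 in ASF-KO. The sign of a median as small as that of ER entry there, -0.04, was not checked with Gcg left out. In glucagon-rich cells, 1334 in WT and 1441 in ASF-KO, 6.54% of measured genes were higher and 3.94% lower, and 3 of 29 ER folding genes were higher, with a median log2 ratio of 0.20. Somatostatin-rich cells, with 6.32% of measured genes higher, had 0 higher members and a median of 0.16. Endothelial-gated cells, with 11.4% higher, had 5 higher members and a median of 0.28. Fkbp11 had 36.6 and 36.7 CPM in glucagon-rich cells and Hspa5 840 and 999. Not all members were as alike there. In thinned glucagon-rich cells Sdf2l1 was detected in 4.71% of WT and 11.4% of ASF-KO cells and Hyou1 in 12.5% and 21.1%. Manf went the other way, at 43.8% and 39.9%, and 0 of the 29 genes were lower past the fold. The medians for ER entry were 0.75 in insulin-rich and -0.04 in glucagon-rich cells, and for the Atf4 and CHOP arm -0.71 and -0.31. Lower members of that arm were not confined to insulin-rich cells. They numbered 6 of 17 in glucagon-rich, 2 of 16 in somatostatin-rich and 5 of 14 in endothelial-gated cells, and higher members 0, 1 and 2. In the latter 2 classes its medians were -0.05 and -0.21, and 5.72% and 8.33% of all measured genes were lower. The difference between classes was not tested, since each class has 1 library a genotype and classes of a library share its preparation.

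**Figure D5:**
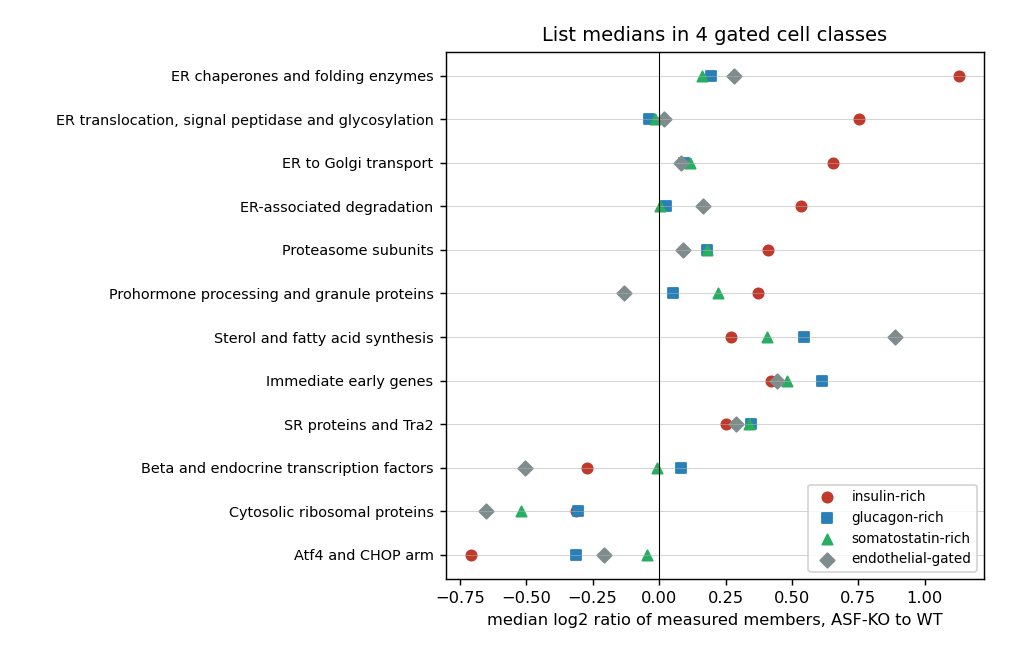
Median log2 ratio of ASF-KO to WT over the measured members of 12 gene lists (x axis) in 4 cell classes of the same pair of libraries. ER folding, at 1.13 in insulin-rich cells, lies between 0.16 and 0.28 in the other classes. The medians of SR proteins run from 0.25 to 0.34 over the 4 classes, and those of ribosomal proteins from -0.65 to -0.31. The scaling totals keep Gcg and Sst. On this scale, of the lists drawn, only ER entry, prohormone processing and the beta-cell transcription factors change sign between classes. The ER entry medians of -0.04 in glucagon-rich and -0.01 in somatostatin-rich cells are small. Their signs were not checked with Gcg and Sst left out. Scaled to all UMIs the SR median in insulin-rich cells is -0.16.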

How the data were processed

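The authors deposited raw UMI counts (32285 genes, not normalized), written by Cell Ranger 5.0.0 per the file headers. STAR, Seurat and mm10 are also named, without roles, per the submitters' processing notes. UMIs were summed over gated cells per library and scaled to UMIs outside Ins1, Ins2, Iapp and mitochondrial genes. Gcg, Sst and Ppy stayed in this total in all classes. Ratios carry exact conditional binomial 95% intervals and shares exact binomial ones. No test between genotypes was run. Genes with a mean of at least 10 CPM were measured. The members and lists were chosen with earlier results of these data known. Named genes were the 15 highest and 15 lowest by the interval bound nearest 1, with at least 50 CPM, leaving out gate, mitochondrial, ribosomal protein, sex-linked, unnamed and other-cell marker genes and those over 10 times higher in another class of at least 10 cells; all measured members of lists fixed as such; and the 2 highest, 2 lowest and most abundant of other lists. A few genes the rule names are not reported here. Glucagon-rich and somatostatin-rich cells had at least 10% of UMIs from that hormone and under 10% from insulin, and endothelial-gated cells at least 5 endothelial marker UMIs and under 25% from insulin. Scrublet marked 291 WT and 319 ASF-KO barcodes as doublets, 80 and 65 of them insulin-rich; they were kept, and left out in an alternative. The script for ratios and intervals was checked on simulated counts with known ratios. Alternatives changed scaling, gates, filters, fold and weighting. The analysis used scanpy 1.11.5, scipy 1.17.1, numpy 2.4.6 and pandas 2.3.3 under python 3.11.15, with matplotlib 3.10.9. Promoter windows are RefSeq's for GRCm38.p6; gene positions are GENCODE's for GRCm38.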

Additional observations from a re-analysis of the deposited data

Results flagged for a closer look

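In 5 cases a gene lay past the fold in opposite directions in insulin-rich cells and another class of the same libraries; with 1 library a genotype these differences were not tested. Nr1d1, a clock repressor, had an ASF-KO to WT ratio of 0.391 in insulin-rich cells, 2.46 in glucagon-rich and 2.767 in endothelial-gated cells. Hlf, a clock output factor, had 0.456 in insulin-rich and 1.774 in endothelial-gated cells. Npas4, an activity-dependent factor, had 0.233 in insulin-rich and 1.53 in glucagon-rich cells. Cish, a cytokine signalling inhibitor, had 0.626 in insulin-rich and 2.303 in endothelial-gated cells.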

How the results depend on the processing

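No paired analysis was possible because each genotype has 1 library, and leaving out a library was not possible either. Scaling to all UMIs gave 129 higher and 2003 lower genes against 752 and 810, with a median log2 ratio of all genes of -0.41 and a Srsf1 ratio of 0.958; of the calls 6.05% were higher, against 48.1%. With Mt1, Mt2 and ribosomal protein genes also out of the total, an alternative chosen after seeing the data as were 2 others (leaving out transcripts under 500 bases, and a higher minimum of UMIs a cell), counts were 580 and 1114, 34.2% of calls were higher and the Srsf1 ratio was 1.21. Requiring 50 CPM gave 406 and 310, taking every gene with a UMI in both sums 2014 and 3765, and a 2-fold limit 190 and 194. Weighting bins of insulin share equally gave 1041 and 1082, of which 535 and 569 were shared with the main calls, and turned Srrm4 to 0.708 and Vgf to 0.878. Cell gates, doublets and shared barcodes moved the counts to no more than 758 and 815. Of list medians over 0.2 in size, those that changed sign did so under the scaling to all UMIs alone, as given above, with the zinc list going from 0.20 to -0.37. Of 5981 gene values over the alternatives 1088 moved beyond counting error, and 2 genes past the fold reversed, both named here. Depth limits the rarer transcripts, such as the 228 Aldh1a3 UMIs in WT.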

Other observations

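Further lists gave the following values in insulin-rich cells, with no cause tested. Of 23 measured autophagy and lysosome genes 5 were lower and 0 higher in ASF-KO. The autophagy receptor Sqstm1 had 194 CPM in WT and 219 in ASF-KO. Of 17 cytosolic and mitochondrial heat shock genes 3 were lower and 0 higher, with Hsp90ab1 at 2220 and 2270 CPM. The cytosolic chaperones thus did not share the median of the ER list (-0.08 against 1.13).

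Among apoptosis regulators 1 of 11 was higher and 3 lower. Cycs, cytochrome c, had 99.8 CPM in WT and 279 in ASF-KO, and the anti-apoptotic Bcl2l1 49.5 and 26.0. The p53 list had 1 higher (11.1%) and 2 lower (22.2%) of 9, against backgrounds of 8.05% and 8.67%. Its Cdkn1a, a cell cycle inhibitor, had 93.4 and 47.1 CPM, a ratio of 0.504 that became 0.882 with bins of insulin share weighted equally. Of 6 measured genes that lactogenic hormones raise in beta cells, Matn2 at 6.95 and 20.3 CPM and Wipi1 at 58.3 and 88.3 were higher and Cish at 16.5 and 10.3 lower. Matn2 passed the minimum level through the ASF-KO library, so it had to be higher there. The prolactin receptor Prlr had 439, 647 and 366 CPM in WT, ASF-KO and SC35-KO.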
